A study of Equus caballus with 22 samples.

Results

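The pregnancy contrast at day 12 comprised 12 of the 22 arrays of a study of the equine endometrium, the lining of the uterus. These arrays were chosen by their titles, which give day 12 and either a pregnant or a non-pregnant state, and they came from 6 warmblood mares. Each mare gave 1 pregnant sample, a biopsy taken after the embryo had been recovered at day 12, and 1 control sample of the matching stage without a pregnancy, so that pregnant and control arrays were paired by mare. The remaining 10 arrays, from 5 mares at day 8, entered the same statistical fit and served for the comparison of the days. The sources used here do not give the ages of the mares, the reference point of the day count or the interval between the biopsies of a mare. Both kinds of sample were whole biopsies, so fewer cells of a type and less RNA per cell cannot be told apart.

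In the mare the young embryo lies free in the uterus and is moved around it before it becomes fixed in place and, later, attaches. During this time it lives on what the uterine glands secrete, a fluid whose make-up depends on progesterone, and the mare has to recognise the pregnancy so that the endometrium does not release the prostaglandin that would end the life of the corpus luteum. Genes of secretion, prostaglandin handling, cell surfaces and blood vessels were therefore described as groups.

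Levels are given as log2 of the processed signal minus the 75th percentile of the array, so a level of 0 is that of a bright spot and most spots lie below it. A change is the pregnant minus the control level within a mare, averaged over mares by limma, with its standard error (SE), and a Benjamini-Hochberg adjusted p under 0.05 over all probes tested counted as past the threshold. On the 12 arrays 74.2% to 92.9% of the spots were well above background. The tissue label was set against markers that the array could name. The epithelial splicing factor gene ESRP1 stood at 2.84 ± 0.24 in pregnant and 2.85 ± 0.24 in control samples, and DCN, the stromal proteoglycan decorin, at 4.05 ± 0.29 and 3.88 ± 0.22 (SD, n = 6 each). The gene of uterocalin, P19, a lipocalin secreted by the glands of the horse uterus, stood at 7.30 ± 0.29 and 7.37 ± 0.51, and its change of -0.07 ± 0.15 (SE) did not pass. Of 20 markers of trophoblast and embryo, 4 were measured, and the log2 of their summed signal ranged from -1.28 to -0.75 in pregnant and from -1.32 to -0.41 in control samples. That sum is set mostly by 1 probe of CYP19A1, at -1.66 ± 0.55 in pregnant and -1.65 ± 0.64 in control samples. The other CYP19A1 probes had means of -7.44 to -6.96, and 3 or 4 arrays of each group were well above background.

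Mare 3 stood apart from the others. Over 31122 probes well above background on all 22 arrays, the changes of mare 3 correlated at -0.15 with the mean changes of the other 5 mares, against 0.60 in mare 1, 0.52 in mare 2, 0.33 in mare 4, 0.10 in mare 5 and 0.45 in mare 6. These values are descriptions across probes, which share arrays and are not independent. The array pair of mare 3 lay on the same slide as that of mare 1, the pairs of mares 4 and 6 shared a slide, and mares 2 and 5 had a slide each. In mare 3 the pregnant array had a 75th percentile of 1393 units and the control array 1849, in mare 1 these were 1863 and 1128. The part of these differences in the results was not tested, and the counts of called probes and genes and the changes of the transcripts and genes described among them are also given without mare 3. Mare 3 was singled out by these same values, so counts and adjusted p values without it are descriptions.

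**Figure D1:**
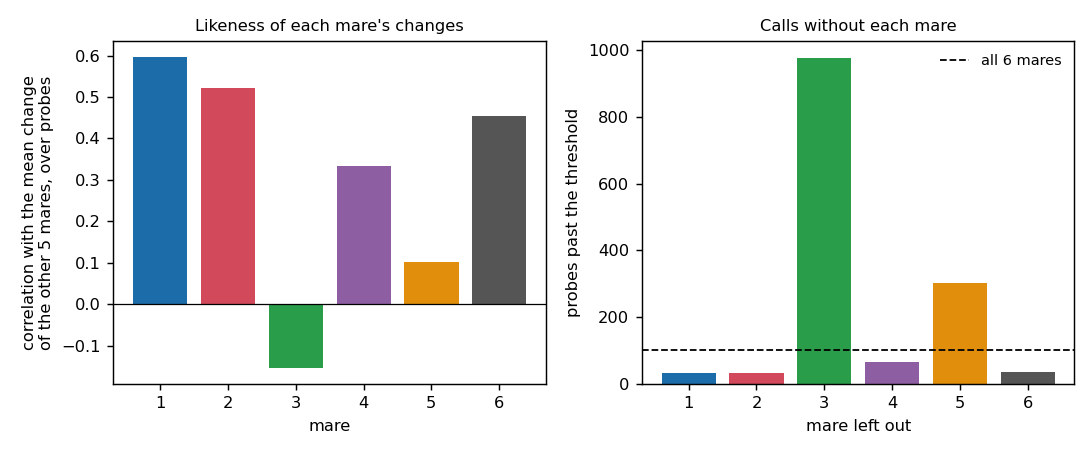
Left, bars give for each of the 6 mares the correlation of the pregnancy changes with the mean changes of the other 5 mares over 31122 probes. Right, bars give the number of probes past the threshold when the array pair of that mare is left out, with the 102 of all 6 mares as a dashed line. Mare 3 is the only mare with a correlation below 0, and without it 977 probes passed, against 31 to 302 without any other mare.

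Pregnancy at day 12 was marked by a small set of transcripts that rose and a smaller set that fell. Of 38461 probes tested, 102 passed the threshold (0.265%), of which 81 were higher (0.211%) and 21 lower (0.0546%) in pregnant samples. The 102 probes carry 62 accessions, 51 of them higher and 11 lower. Only 8 of these accessions belong to a gene with a symbol, and 54 do not. The higher probes had a median change of 1.55 log2, from 0.59 to 6.72, and the lower ones of -2.23, from -0.39 to -2.32. Probes of 1 transcript are not independent. Of the 21 lower probes, 10 belong to 1 transcript, DN510735, with changes of -2.32 to -2.23, and the median of the lower probes rests on it. In 45 of the 102 probes every pregnant array lay above or below every control array, which held for 125 of all probes tested (0.325%). The median change over all probes was -0.02, and 4797 probes (12.5%) had an unadjusted p under 0.05 in limma. Each array was scaled to a percentile of its own signal, so this median cannot show whether levels shifted as a whole. With normexp background correction, an alternative, the median change over all probes was 0.34.

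The count of called probes rested on the mares in the fit. Without mare 3, 977 probes passed, 573 higher and 404 lower, and all 102 were among them. Without mare 5, 302 passed and 94 of the 102 were among them. Fewer passed without any of the other mares, namely 31 without mare 1, 33 without mare 2, 64 without mare 4 and 35 without mare 6. With the 12 arrays of day 12 fitted alone 9 probes passed, all higher.

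The transcripts with the clearest changes carry no gene symbol here and are given by the accession of the array. The transcripts ENSECAT00000015626, ENSECAT00000012868, ENSECAT00000022839 and CX604860 had the smallest p in their direction. DN508408 and DN510735 were added after their values were seen, because they had the largest rise and the largest fall and many probes each.

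DN508408 was the transcript with the largest change. Its level lay between -6.03 and -2.59 in the 6 control samples and between 1.21 and 3.22 in the 6 pregnant samples. The groups were far apart, with the lowest pregnant sample above the highest control sample, and every array of both groups was well above background. The rise was 6.72 ± 0.57 log2 (SE, n = 6 mares), with an adjusted p = 0.00057, and it ranged from 4.95 in mare 2 to 8.02 in mare 4. All 5 probes of this transcript passed, with changes of 6.56 to 6.72. With any 1 mare left out the rise lay between 6.46 and 7.08 and passed each time, and without mare 3 it was 6.80.

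ENSECAT00000015626 was close to the floor of the array without pregnancy. Control samples lay between -9.63 and -7.55, with 1 of 6 well above background, and pregnant samples between -5.93 and -1.80, with 6 of 6. The groups did not overlap. The rise was 5.23 ± 0.29 log2 (adjusted p = 3.47e-05), it ranged from 3.60 in mare 2 to 6.02 in mares 1 and 6, and all 5 probes passed with changes of 4.23 to 5.23. Without mare 3 the rise was 5.15 (adjusted p = 0.000274). Since most control values were at background, the size of the rise is set by that background.

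ENSECAT00000012868 had control levels of -7.73 to -5.30 and pregnant levels of -5.30 to -3.32. The groups touched, since the lowest pregnant sample, that of mare 3, stood at the level of the highest control sample, that of mare 5. Within each mare the pregnant sample was higher, by 1.21 to 3.15, and the rise was 2.32 ± 0.19 (4.98-fold, adjusted p = 0.00057), or 2.29 without mare 3 (adjusted p = 0.00166).

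Among the transcripts that fell, DN510735 had the largest change. It had control levels of -0.25 to 2.82, with a median of 1.86, and pregnant levels of -1.19 to 0.46. The low control sample was that of mare 5, and it made the groups overlap. The fall was 2.32 log2 units, with a change of -2.32 ± 0.31 (adjusted p = 0.014), and all 10 probes of this transcript passed, with changes of -2.32 to -2.23. In mare 5 the change was -0.81, and in the other mares it ranged from -3.79 to -1.91. The call was lost without mare 2 (adjusted p = 0.0607) or without mare 6 (adjusted p = 0.0595), and without mare 3 the change was -2.22 (adjusted p = 0.0149).

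ENSECAT00000022839 stood between -6.24 and -4.28 in control samples and between -9.10 and -5.73 in pregnant samples, of which 3 of 6 were well above background. The groups overlapped, but every mare had the lower level in pregnancy, by 1.42 to 2.85 log2 units. The change was -2.27 ± 0.19 (adjusted p = 0.00057) for 1 of its 2 probes, and the other probe gave -0.92. Without mare 3 the change of the first was -2.21 (adjusted p = 0.00172). Under normexp background correction the call of this probe was lost and the sign of its change reversed. CX604860 had a smaller and even change, at -0.81 ± 0.10 (adjusted p = 0.00714), with values from -0.94 to -0.55 in the 6 mares, and it was -0.84 without mare 3 (adjusted p = 0.00638).

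**Figure D2:**
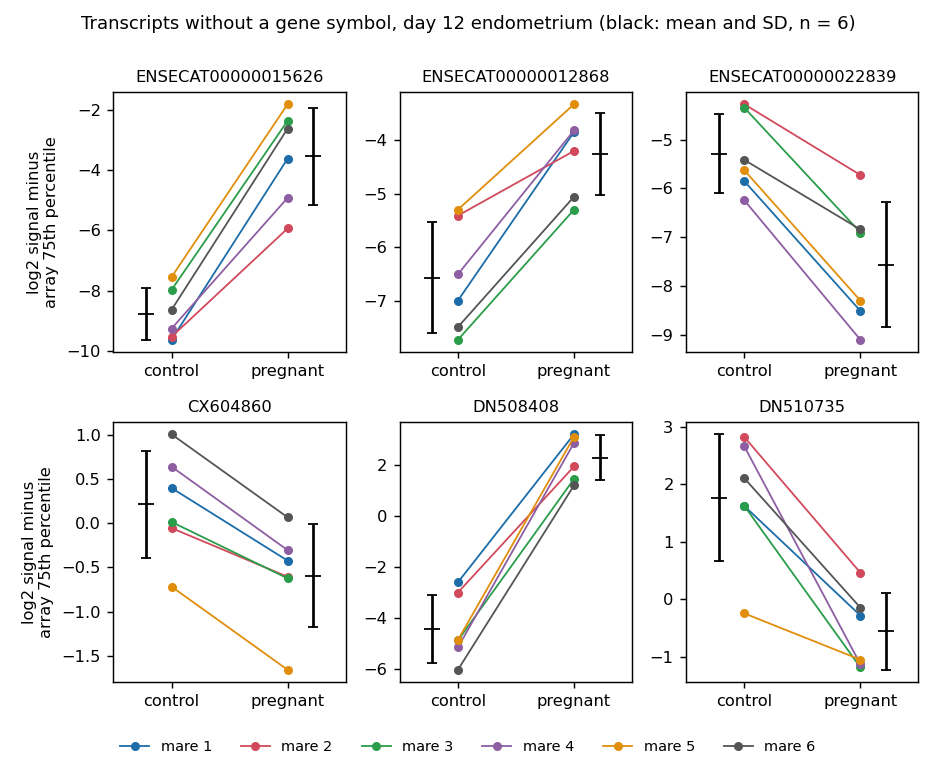
Levels (log2 signal minus the 75th percentile of the array) of 6 transcripts without a gene symbol in control and pregnant samples at day 12. Each line joins the samples of 1 mare, and black bars give the mean and SD of 6 samples. All lines rise for ENSECAT00000015626, ENSECAT00000012868 and DN508408 and fall for the other transcripts, and the groups stand clear of each other for DN508408 and ENSECAT00000015626.

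Of 609 genes with a symbol, 8 passed by at least 1 probe (1.31%), 7 higher and 1 lower, and in none of the 8 did a mare go against the others. They fall into genes of the lysosome, of cell surface and cell shape, of vessels, of transport, of hormone storage and of prostaglandin synthesis. By the probe with the highest mean signal of each gene, 6 passed (0.985%). Of all 609 genes, 305 (50.1%) were higher, with a median change of 0.00. Without mare 3, 23 genes passed, all 8 included.

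GM2A (NM_001081912), whose protein presents the ganglioside GM2 to the lysosomal enzyme that breaks it down, had the firmest rise of a named gene. The control samples lay between -0.03 and 1.31, with a median of 0.69, and the pregnant samples between 1.74 and 4.05, with a median of 2.58. The groups did not overlap. The rise was 2.10 ± 0.22 log2 (4.28-fold, adjusted p = 0.0027), and it was 3.09 in mare 5, the highest, and 1.04 in mare 3, the lowest. It passed with any 1 mare left out, with adjusted p values up to 0.0195, and without mare 3 the rise was 2.31. The call was lost under normexp background correction, with or without arrays centred on their median, and with day 12 fitted alone. The other measured gene of lysosome and glycolipid breakdown, the sphingomyelinase gene SMPD1, stood at 0.08 ± 0.12 (adjusted p = 0.828).

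CHGA (NM_001081814), the gene of chromogranin A, a protein of the storage granules of endocrine cells, had the largest rise and the least even one. Control samples ranged widely, from -7.02 to 0.07, and pregnant samples from -3.11 to 0.32. The groups overlapped, and mare 5 had the highest level of both groups. The rise was 2.79 ± 0.48 (6.92-fold, adjusted p = 0.0449), and it was 0.25 in mare 5 and 1.64 to 4.87 in the other mares. Of 5 probes, 1 passed, and all 5 gave changes of 2.71 to 2.83. Without mare 5 the rise was 3.30 (adjusted p = 0.00673), without mare 3 it was 2.38 (adjusted p = 0.0268), and it did not pass without mare 1, 2, 4 or 6, where the adjusted p lay between 0.0857 and 0.148.

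CALCA (NM_001085424), which encodes calcitonin and a related neuropeptide, rose from values near the floor. Control samples lay between -10.67 and -7.29, with 1 of 6 arrays well above background, and pregnant samples between -7.69 and -5.54, with 4 of 6. The groups overlapped. The rise was 2.23 ± 0.37 (adjusted p = 0.039), with 4.28 in mare 1, 3.03 in mare 3 and 1.25 to 1.65 in the other mares. Its other probe, which carries a different accession, gave 0.14 ± 0.28 (adjusted p = 0.872). The call was lost without mare 1, 2, 4 or 6, with adjusted p values of 0.0627 to 0.0959, and without mare 3 the rise was 2.07 (adjusted p = 0.0308). Other genes of endocrine granules and neuropeptides were the vesicle protein gene SV2A at -0.21 ± 0.19 and the serotonin receptor gene HTR1A at 0.13 ± 0.09, neither past the threshold. In all, 6 of the 37 genes of this list were measured, 4 of them higher, with a median of 0.10.

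CDH13 (NM_001109812), a cadherin held in the membrane by a lipid anchor, rose by 1.06 ± 0.16 (2.08-fold, adjusted p = 0.0185), and both of its probes passed. Pregnant samples were close together, from 0.00 to 0.61, while control samples were spread from -1.27 to 0.14. The groups overlapped through the control sample of mare 3, the highest of the controls, and in mare 3 the rise was 0.31, against 0.94 to 1.63 in the other mares. The call was lost without mare 1, 2, 4 or 6 (adjusted p from 0.0672 to 0.0844), and without mare 3 the rise was 1.20 (adjusted p = 0.00384).

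ANGPTL2 (XM_001501670), a secreted protein of the angiopoietin-like family, rose by 0.73 ± 0.10 (1.66-fold, adjusted p = 0.0153). Its level lay between -0.22 and 0.86 in control and between 0.54 and 1.52 in pregnant samples, which overlapped between mares. Within mares the rise was at least 0.55, and both probes passed. The adjusted p was 0.0538 without mare 1 and 0.0607 without mare 2, and without mare 3 the rise was 0.71 (adjusted p = 0.0149).

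RND3 (XM_001488213), a small GTP-binding protein that holds back the contraction of actin fibres, was the other named gene that passed with groups apart. Control samples lay between -1.17 and -0.58 and pregnant samples between -0.27 and 0.29. The rise was 0.77 ± 0.12 (1.70-fold, adjusted p = 0.0327), with 0.59 to 0.90 in the 6 mares. It was lost without mare 1, 2, 4 or 6, with adjusted p values of 0.0968 to 0.141, while the change stayed between 0.74 and 0.80 in the fits with 1 mare left out and was 0.79 without mare 3 (adjusted p = 0.0207).

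ABCC1 (NM_001081763), an export pump for conjugated lipids and drugs, rose by 0.68 ± 0.12 (1.61-fold, adjusted p = 0.0474). Control samples lay between -2.46 and -1.41 and pregnant samples between -1.78 and -0.88, with overlap. The rise was 0.25 in mare 5, 0.40 in mare 3 and 0.67 to 1.21 in the other mares. Its other probe gave 0.43 ± 0.15. Without mare 1, 2, 4 or 6 the call was lost (adjusted p from 0.106 to 0.175), and without mare 3 the rise was 0.74 (adjusted p = 0.0196).

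PTGDS (NM_001081868), a prostaglandin D synthase that is also a lipocalin, was the named gene that fell, with a change of -0.39 ± 0.07 (adjusted p = 0.0407). Control levels ran from -1.77 to -0.48 and pregnant levels from -2.11 to -0.98, so the groups overlapped almost fully and the difference was seen within mares, from -0.52 to -0.28. The other probe gave -0.27 ± 0.08 and did not pass. The call held without mare 3 (-0.42, adjusted p = 0.018) and was lost without any of the other mares, with adjusted p values of 0.0543 to 0.166.

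**Figure D3:**
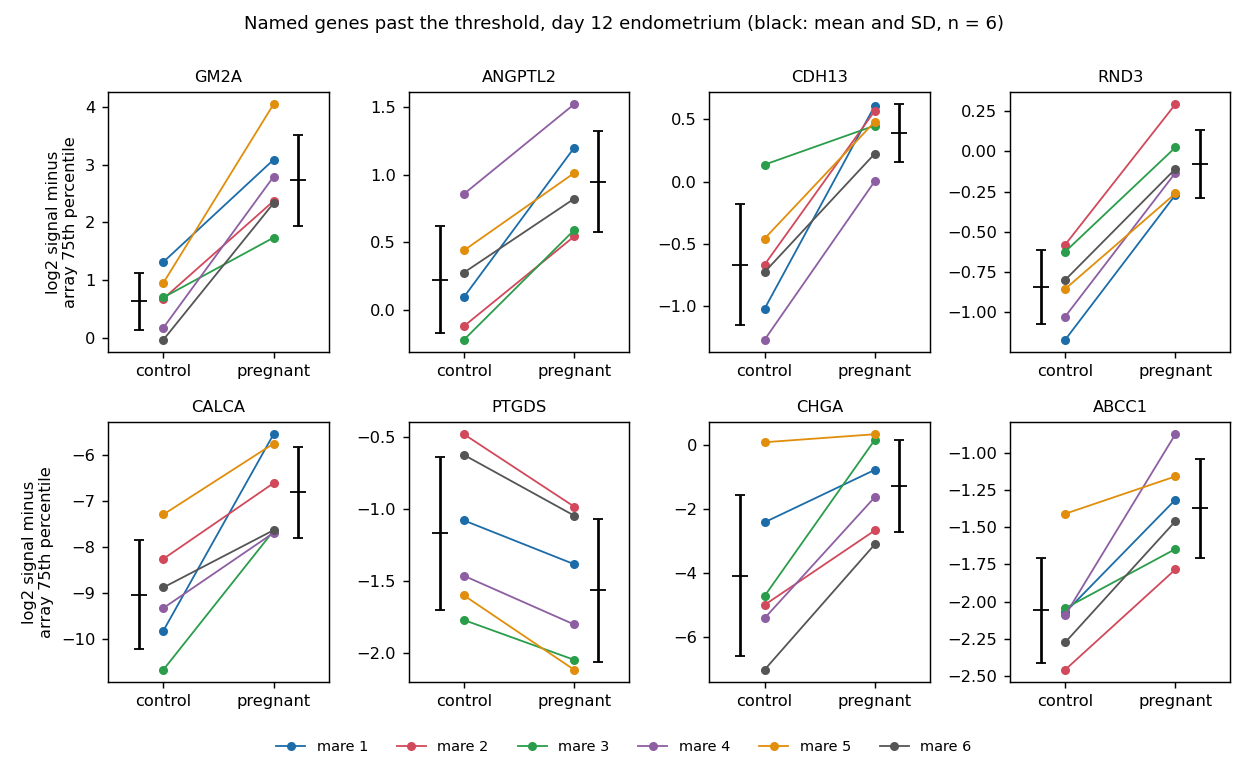
Levels (log2 signal minus the 75th percentile of the array) of the 8 genes with a symbol that passed the threshold at day 12, in control and pregnant samples. Each line joins the samples of 1 mare, and black bars give the mean and SD of 6 samples. All 6 lines run the same way in each panel, and the groups do not overlap for GM2A and RND3.

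Other genes with a symbol moved the same way in all 6 mares without passing. In all, 38 of 609 genes (6.24%) had 6 of 6 mares in 1 direction by their brightest probe. Among those higher, SPI2, a protease inhibitor of the serpin family, stood at -6.46 to -3.92 in control and -4.24 to -2.37 in pregnant samples, with a change of 1.88 ± 0.38 (adjusted p = 0.0702). TIMP1, an inhibitor of matrix metalloproteinases, had a change of 0.60 ± 0.15 (adjusted p = 0.117), TAGLN, a protein of smooth muscle, of 0.90 ± 0.23 (adjusted p = 0.139) and TMEM140 of 0.53 ± 0.14 (adjusted p = 0.138). Among those lower, PPAT, which opens purine synthesis, had a change of -0.48 ± 0.10 (adjusted p = 0.0777). SMIM7, a small membrane protein, lay between 3.17 and 3.36 in pregnant and between 3.40 and 3.74 in control samples, so its groups did not overlap, yet its change of -0.30 ± 0.07 did not pass (adjusted p = 0.102). The remaining ones among the 10 with the smallest p of those lower were NLGN3, COPS9, TMEM147, ITGA2B, CYP17A1, CENPX, HSD11B2 and ZNF174. They had changes of -0.77 to -0.24 and adjusted p values of 0.139 to 0.199.

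The pathway lists were read beside the medians over all probes (-0.02) and over all named genes (0.00). Of 28 listed genes of vascular growth and endothelial signalling, 10 were measured, 9 were higher, and the median was 0.40, the highest of the lists with at least 4 measured members under this scaling. Normexp background correction, an alternative, shifted the median of all probes to 0.34. The vascular list then lay 0.25 above that median, below the endocrine granule list (0.31) and the chemokine list (0.34). ANGPTL2 and CDH13 passed, and the leukocyte receptor SELP on activated endothelium stood at 0.37 ± 0.11 (adjusted p = 0.178). The list median was above 0 in 5 mares, from 0.32 in mare 3 to 0.85 in mare 1, and was -0.15 in mare 5. PECAM1, the 1 measured of 8 endothelial markers, ranged from -0.13 to 1.07 in control and from 0.51 to 1.51 in pregnant samples, with a change of 0.44 ± 0.16 (adjusted p = 0.305). TAGLN, the 1 measured of 7 smooth muscle markers, ranged from -2.85 to -1.08 and from -1.43 to -0.35. The part of vessel or muscle content in the vascular list was not tested.

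**Figure D4:**
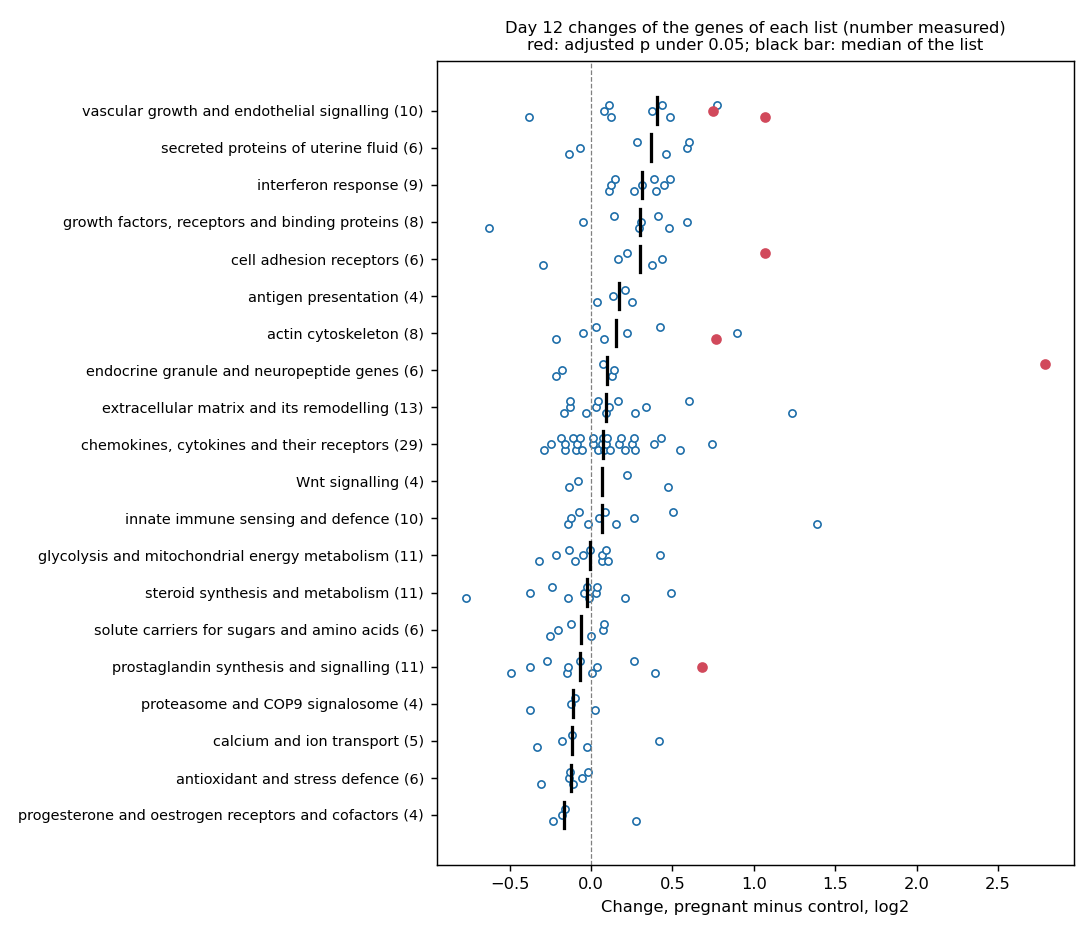
Changes (log2, pregnant minus control) of the measured genes of each pathway list with at least 4 measured members, with the brightest probe standing for each gene. Red points passed the threshold, open points did not, and black bars mark the list medians, from -0.17 to 0.40. The largest change is that of CHGA, at 2.79.

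Interferon response genes, which cells switch on against viruses and in some species in answer to the embryo, were all on the higher side, but none of the 9 measured passed. Their median was 0.31, and the changes ran from 0.11 to 0.49. IFI27, an interferon-induced membrane protein, was at 2.03 to 3.89 in control and 2.58 to 4.71 in pregnant samples (0.49 ± 0.16, adjusted p = 0.249). EIF2AK2, a kinase that senses double-stranded RNA, stood at 0.45 ± 0.17 (adjusted p = 0.313) and OAS2 at 0.40 ± 0.19 (adjusted p = 0.428). The median of the list was -0.13 in mare 3 and 0.20 to 0.42 in the other 5 mares. Under normexp correction 8 of 9 were higher and the list median lay 0.05 above that of all probes. With arrays also centred on their median 4 of 9 were higher and the list median was -0.04, again 0.05 above that of all probes, -0.09.

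Secreted proteins of the uterine fluid and growth factors had medians of 0.37 (4 of 6 measured higher) and 0.30 (6 of 8), with no member past the threshold. RBP4, which carries retinol, had control levels from 1.83 to 5.01 and pregnant levels from 3.53 to 4.43, a narrower range around a change of 0.59 ± 0.26 (adjusted p = 0.381). CLU, a secreted chaperone, stood at 0.46 ± 0.18 (adjusted p = 0.331). MET, the receptor of hepatocyte growth factor, had a change of 0.41 ± 0.14 (adjusted p = 0.254), the growth factor gene IGF2 of 0.48 ± 0.21 (adjusted p = 0.376) and TGFB1 of 0.31 ± 0.13 (adjusted p = 0.343). Under normexp correction both list medians lay within 0.05 of the median of all probes.

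Prostaglandin synthesis and signalling showed no common direction. Of 32 listed genes 11 were measured, 5 higher and 6 lower, with a median of -0.07, and under normexp correction the median minus that of all probes was -0.23. ABCC1 was the member that passed by its brightest probe, and PTGDS passed by another. PTGS2, the inducible cyclooxygenase that makes the precursor of prostaglandins, was higher in 6 of 6 mares by 0.04 to 0.54 (0.27 ± 0.11, adjusted p = 0.354). Its other probes gave 0.47 ± 0.17 and 1.03 ± 0.32, the latter well above background on 4 pregnant and 3 control arrays. The change of PTGFR, the receptor of prostaglandin F, was -0.49 ± 0.21 (adjusted p = 0.36).

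Genes of steroid synthesis and metabolism had a median of -0.02, with 4 of 11 higher. Under normexp correction 9 of 11 were higher, and the median of 0.49 lay 0.15 above that of all probes. HSD11B2, which turns cortisol into inactive cortisone, lay between -4.65 and -4.46 in pregnant and between -4.23 and -3.27 in control samples. Its groups did not overlap, and its change of -0.77 ± 0.23 missed the threshold (adjusted p = 0.193). CYP17A1 stood at -0.24 ± 0.07 (adjusted p = 0.178) and HSD3B2, an early step of steroid synthesis, at -0.38 ± 0.23 (adjusted p = 0.55). AKR1C1 had 3 probes that disagreed, at 0.04 ± 0.22, -0.27 ± 0.27 and -1.61 ± 0.46, and none passed. Of the steroid hormone receptors and cofactors, 4 of 22 were measured, with a median of -0.17. They included PGRMC1, a membrane-bound progesterone-binding protein, at -0.23 ± 0.11 (adjusted p = 0.437), and the orphan receptors NR5A1 at -0.16 ± 0.13 and NR5A2 at 0.28 ± 0.17.

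Cell adhesion receptors had 5 of 6 measured genes higher and a median of 0.30. CDH13 passed, the hyaluronan receptor CD44 stood at 0.43 ± 0.19 (adjusted p = 0.373), and ITGA2B, an integrin chain of platelets, had a change of -0.29 ± 0.08 with 6 of 6 mares lower (adjusted p = 0.158). Genes of the extracellular matrix had 9 of 13 higher and a median of 0.09, with TIMP3, an inhibitor of matrix metalloproteinases, at 0.34 ± 0.16. Genes of the actin cytoskeleton had 6 of 8 higher and a median of 0.15. RND3 passed and TAGLN did not, and the actin-severing protein gene GSN was at 0.42 ± 0.17 (adjusted p = 0.329), with 1 array of mare 5 left out as non-uniform. Under normexp correction the median of the actin list minus that of all probes was -0.33.

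Immune genes showed no member past the threshold. Among chemokines, cytokines and the receptors for them 19 of 29 were higher, at a median of 0.07, led by IL23A at 0.55 ± 0.24 (adjusted p = 0.372). Under normexp correction 28 of 29 were higher, 24 of them above the median of all probes, and the list median of 0.68 lay 0.34 above it. CXCL10, a chemokine for T cells, stood at 0.39 ± 0.27 and IL5 at -0.18 ± 0.11. Innate sensing and defence had 6 of 10 higher and a median of 0.07. CD14, the co-receptor for bacterial lipopolysaccharide, had a change of 0.51 ± 0.16 (adjusted p = 0.214), TLR3, which senses viral RNA, of 0.26 ± 0.13, and the defensin DEFB4B of 1.39 ± 0.88, ranging from -1.74 in mare 5 to 3.36 in mare 6. Antigen presentation had 4 of 4 higher, with a median of 0.17, and CD74 at 0.25 ± 0.19, CD40 at 0.21 ± 0.16 and B2M at 0.04 ± 0.16. Under normexp correction its median lay below that of all probes, with a difference of -0.31. Of the immune cell markers, 4 of 10 for macrophages and dendritic cells and 3 of 17 for T and NK lymphocytes were measured, with medians of 0.12 and 0.01. For macrophages the log2 of the summed signal of the 4 genes, which is set mostly by the brightest of them, ranged from 3.24 to 3.62 in pregnant and from 2.80 to 3.58 in control samples. Their members ITGAX (0.17 ± 0.22), LAPTM5 (0.08 ± 0.15), CD2 (0.04 ± 0.20), GZMB (-0.07 ± 0.38) and IL2RA (0.01 ± 0.37) did not pass. No listed marker of neutrophils or of B and plasma cells was measured.

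Genes of metabolism and housekeeping lay close to 0. Glycolysis and energy metabolism had 5 of 11 higher and a median of -0.01, with LDHB at -0.32 ± 0.12, PPARGC1A at 0.42 ± 0.18 and PRKAG3 at -0.14 ± 0.09. All 6 measured antioxidant and stress defence genes were on the lower side with a median of -0.12, among them SOD1 at -0.31 ± 0.11 (adjusted p = 0.285), HSP90AB1 at -0.13 ± 0.12 and TXN at -0.11 ± 0.09. COPS9, a subunit of the COP9 signalosome, was lower in 6 of 6 mares (-0.37 ± 0.10, adjusted p = 0.14), and the other members of that list, PSMB2 at -0.12 ± 0.09 and COPS7A at -0.10 ± 0.09 among them, brought its median to -0.11. Ion transport had a median of -0.11, with CFTR at -0.33 ± 0.27, S100G at 0.42 ± 0.37 and SCN4A at -0.18 ± 0.14. Under normexp correction the median minus that of all probes was -0.58 for antioxidant genes, -0.44 for the proteasome and COP9 list and -0.53 for ion transport. Sugar and amino acid carriers had a median of -0.06, with BSG at -0.20 ± 0.08, SLC16A1 at -0.13 ± 0.11 and SLC5A1 at -0.25 ± 0.23.

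In the Wnt list 2 of 4 were higher, with RSPO3 at 0.47 ± 0.27, CTNNB1 at 0.22 ± 0.11 and RSPO1 at -0.08 ± 0.08. H19, an imprinted RNA, had a change of -0.29 ± 0.57 that rested on mare 3, at -3.76, and without mare 3 it was 0.40. The apoptosis genes measured were MCL1 at 0.24 ± 0.13 and CASP1 at -0.09 ± 0.16. LUM, a stromal marker, stood at 0.09 ± 0.21. No cell cycle gene of the list was measured. Of the trophoblast markers, PAG stood at -0.02 ± 0.18, CGA at 0.25 ± 0.23 and IFND1 at -0.15 ± 0.09, with levels of PAG from -6.05 to -4.59 in pregnant and from -5.87 to -4.54 in control samples. The 5 PAG probes gave changes of -0.02 to 0.40, and none passed. The probe given here, the brightest on average, had the lowest change of them.

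The changes of day 12 were set beside those of the same transcripts at day 8, measured in the 5 pairs of arrays of that day. At day 8 the 81 probes that were higher at day 12 had a median change of 0.00 and the 21 that were lower a median of 0.24. Of these 21 probes, 10 are probes of DN510735. Of the 102 probes 45 had the same sign on both days, as had 17890 of all 38461. For the difference of the pregnancy effects between the days, 4 of 38457 probes passed (0.0104%), and they belong to ENSECAT00000015626 and ENSECAT00000022839.

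ENSECAT00000015626 was well above background on none of the 10 day 8 arrays, where its level lay between -10.04 and -8.72. Its difference between the days was 5.17 ± 0.43 (adjusted p = 0.00286), of which the day 8 term, 0.05 ± 0.32, is a difference of background values. ENSECAT00000022839 was well above background on all 10 day 8 arrays, with a mean of -4.95 in pregnant and -5.02 in control samples and a change of 0.06 ± 0.21. Its difference between the days was -2.33 ± 0.28 (adjusted p = 0.0434), a call lost with normexp, quantile normalisation and slide as the block, among other alternatives.

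For the named genes the difference between the days did not pass. GM2A had a day 8 change of 0.48 ± 0.24, higher in 5 of 5 mares, and a difference of 1.61 ± 0.33 (adjusted p = 0.157). CHGA had a day 8 change of -1.30 ± 0.53, lower in 5 of 5 mares, and a difference of 4.09 ± 0.72 (adjusted p = 0.146). These are values of the CHGA probe that passed at day 12. Its other probes gave day 8 changes of -0.97 to -0.41, lower in 3 or 4 of 5 mares, and differences of 3.12 to 3.74. PTGDS had a day 8 change of 0.23 ± 0.07, higher in 5 of 5 mares, and a difference of -0.62 ± 0.10 (adjusted p = 0.107). The other, brighter PTGDS probe had a day 8 change of 0.02 ± 0.09, higher in 4 of 5 mares. Its difference was -0.29 ± 0.12 (adjusted p = 0.442). CALCA was well above background on none of the 10 day 8 arrays. ANGPTL2, CDH13, RND3 and ABCC1 had day 8 changes of -0.12 to 0.20 and differences of 0.75 to 0.86, with adjusted p values of 0.151 to 0.281. DN508408 had a day 8 change of 1.18 ± 0.63, with 2 of 5 pregnant and 0 of 5 control arrays well above background, and DN510735 of 0.28 ± 0.34. The days differ in slides, scan days and the version of the scanner software, and these cannot be told apart from the day in levels, while each change was formed within a slide.

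**Figure D5:**
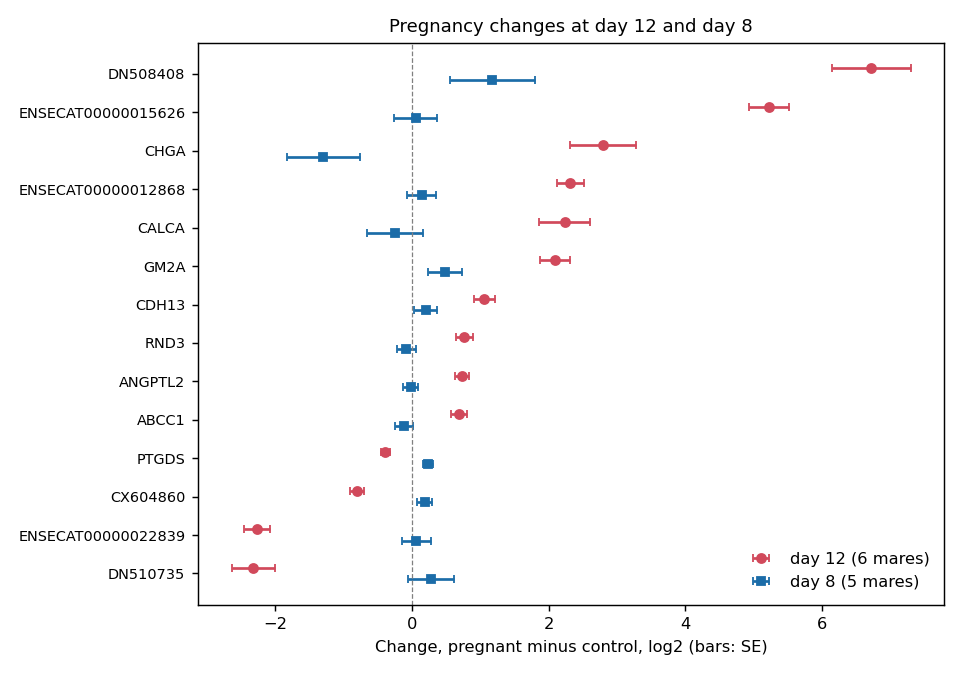
Pregnancy changes (log2, pregnant minus control) of the 8 named genes and the 6 transcripts without a symbol at day 12 (circles, 6 mares) and at day 8 (squares, 5 mares), with SE as bars. The day 12 changes run from -2.32 to 6.72, and the day 8 changes from -1.30 to 1.18.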

How the data were processed

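RNA of 22 biopsies was hybridised with 1 colour, Cy3, to Agilent horse arrays. The deposited spot intensities were made by the authors with Agilent Feature Extraction, version 10.5.1.1 for day 12 and 10.7.3.1 for day 8, per the file headers. The processed intensity used here is positive at all 43803 features. The authors' deposited value table, read as log2 because it follows the log2 intensity at a correlation of 0.986 to 0.997, served as an alternative only, and no source used here gives its centring and normalisation.

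From these, log2 processed intensity minus the 75th percentile of each array was computed, spots marked non-uniform, 3 to 152 on an array, were dropped, and the mean was taken over the spots of a probe. No spot was saturated. Probes well above background on at least 5 of 22 arrays were tested, 38461 of 43603. All 22 arrays entered 1 fit in limma 3.58.1 (R 4.3.3, lmFit and eBayes, two-sided), with the mare, within its day, as a fixed block and a separate pregnancy effect for each day, and p values were adjusted by Benjamini-Hochberg over all probes. The fit was tested on simulated data. The number of arrays limits the precision.

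The labels pair the arrays by mare. The deviations of the arrays of a mare from their group means correlated at 0.288, in mare 3, to 0.724. In 6 of 6 mares the pregnant array correlated best with its own control. Both arrays of a mare also lay on the same slide, so mare and slide cannot be told apart here.

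Symbols came from RefSeq genes of the assembly that the given table names, matched on RefSeq accessions, and gave 1 symbol to 1394 probes (675 genes), several to 1 and none to 42208. Accessions follow the newer of 2 annotation versions in the files, which differ at 3820 features. Sequences and coordinates of the transcripts were not used here.

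The members and gene lists were chosen with earlier results of these data known. Named are the genes that passed by any probe, the 10 with the smallest p in each direction among those with 6 of 6 mares alike, the 3 with the smallest p in each list, and the 2 accessions without a symbol with the smallest p in each direction. The results of 1 gene that this rule names are not reported here. Each gene is represented by the brightest of its probes on average, or by its probe with the smallest p where it passed.

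Alternatives were normexp background correction (offset 50), quantile normalisation, the percentile over spots detected on all arrays, other filters, day 12 alone, no block, slide as a block, a trended robust prior, the authors' table and each mare left out. The scanner output held no mean signal, so normexp used the median signals of spot and background. Normexp with arrays centred on their median was added after seeing the data.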

Additional observations from a re-analysis of the deposited data

Results flagged for a closer look

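The pregnancy effects of the days differed by a test of the difference itself for the transcripts ENSECAT00000015626 and ENSECAT00000022839. For ENSECAT00000015626 the difference, day 12 minus day 8, was 5.17 ± 0.43 log2 (SE, adjusted p = 0.00286), and no array of day 8 was well above background. For ENSECAT00000022839 it was -2.33 ± 0.28 (adjusted p = 0.0434). This call was lost with normexp, quantile normalisation, the percentile over spots detected on all arrays and no filter on dim probes. It was also lost with slide as the block, no block and the authors' table. With normexp and with quantile normalisation, none of the 4 probes of the 2 transcripts that passed in the main fit did so.

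In 13 of 279 groups of values of 1 gene or transcript (the pregnant levels, the control levels or the changes of the mares), 1 sample stood far from the others by Dixon's test, which marks about 1 group in 20 by chance. The count is thus no higher than that rate. The groups are not independent, since the changes are formed from the levels. In 7 of the 13 the sample was that of mare 3. The changes of mare 3 stood apart for CD74 (-0.89, others 0.28 to 0.69), SLC5A1 (1.13, others -0.91 to -0.27), H19 (-3.76, others -0.48 to 0.95), LUM (-1.11, others 0.07 to 0.69) and ESRP1 (0.36, others -0.19 to 0.01). The levels of mare 3 did so in the control sample for CD74 (1.77, others 0.53 to 0.92) and in the pregnant sample for LUM (0.10, others 1.04 to 1.26). In mare 5 the changes of SELP (-0.22, others 0.38 to 0.62) and RSPO3 (-1.39, others 0.67 to 1.11) and the control level of TMEM140 (1.52, others 0.39 to 0.79) were far from the rest. The pregnant levels of TGFB1 in mare 6 (-1.80, others -1.19 to -0.83), of TXN in mare 1 (1.67, others 2.02 to 2.21) and of H19 in mare 4 (0.55, others -1.24 to -0.60) were the remaining ones.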

How the results depend on the processing

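Normexp background correction left 13 probes past the threshold, all higher, and 0 named genes, and with arrays centred on their median it left 14 (6 higher, 8 lower) and 0, with 2331 and 2745 probes at an unadjusted p under 0.05 in limma. All of these were among the 102. Normexp kept 5 probes for the difference of the days, none of the 4 of the main fit, and 0 with the centring (893 at an unadjusted p under 0.05). Normexp moved the median of all probes from -0.02 to 0.34 and the share of higher calls from 79.4% to 100%, and with the centring to 42.9%. The cause was not tested. DN508408 passed in all 16 alternatives in which it was measured.

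A filter on all 22 arrays left 218 probes (fewer were tested), a trended robust prior 287 and 303 passed with the values of the authors, of which 72, 100 and 84 were among the 102. Fitting day 12 alone left 9 probes and 0 named genes (3809 probes at an unadjusted p under 0.05), with no value for the difference of the days. With no replicate block, thus without the pairing by mare, 41 probes and 1 gene, GM2A, passed. No filter on dim probes left 4 named genes, and slide as the block 4, of which 3 were among the 8. For the difference of the days 0 probes passed with quantile normalisation, the filter on all 22 arrays, no replicate block and the authors' table (4224, 3824, 927 and 4189 at an unadjusted p under 0.05), 2 with the percentile over spots detected on all arrays, 2 with no filter and 2 with slide as the block, and 11 with the trended robust prior. With 1 mare left out the probes past the threshold numbered 31 to 977, the named genes 1 to 23 and the probes for the difference of the days 2 to 33.

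Of 1678 values of named genes and transcripts under the alternatives, 1488 kept their direction and their side of the threshold, 100 no longer passed, 13 newly passed and 77 changed sign. Under normexp these stood at B2M -0.12, SMPD1 -0.11, LAPTM5 -0.13, LUM -0.063, SLC5A1 0.016, ITGA2B 0.16, CENPX 0.11, ZNF174 0.081, IFND1 0.37, COPS7A 0.28, IL5 0.28, PRKAG3 0.47, CASP1 0.38, RSPO1 0.41, HSD11B2 0.13, HSD3B2 0.51, NLGN3 0.50, NR5A1 0.57, SCN4A 0.57, CYP17A1 0.59, PAG 0.64 and ENSECAT00000022839 0.27. With the centring they stood at B2M -0.56, CLU -0.10, GSN -0.31, DCN -0.42, SMPD1 -0.54, MET -0.19, IFI27 -0.21, LAPTM5 -0.56, MCL1 -0.39, CTNNB1 -0.42, LUM -0.50, PTGS2 -0.33, CD74 -0.37, TIMP1 -0.0013, CD14 -0.12, TMEM140 -0.10, PECAM1 -0.19, OAS2 -0.042, CD44 -0.0092, TGFB1 -0.0035, CD40 -0.0021, PRKAG3 0.033, HSD3B2 0.074, NLGN3 0.068, NR5A1 0.13, SCN4A 0.14, CYP17A1 0.15 and PAG 0.21. With quantile normalisation ESRP1 stood at 0.036, with the percentile over detected spots ESRP1 0.025 and PAG 0.0068, and with the authors' table ESRP1 0.015, PAG 0.017 and CALCA (list probe) -0.038. With 1 mare left out the signs differed between mares for B2M -0.070 to 0.18, SMPD1 -0.039 to 0.16, LAPTM5 -0.028 to 0.20, GZMB -0.24 to 0.12, ESRP1 -0.078 to 0.032, LUM -0.025 to 0.33, H19 -0.54 to 0.40, CASP1 -0.20 to 0.037, CD2 -0.12 to 0.20, PAG -0.087 to 0.15, CALCA (list probe) -0.23 to 0.36 and IL2RA -0.26 to 0.25. Signal over background limits CALCA, ENSECAT00000015626 and ENSECAT00000022839, which were dim in 1 group.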

Other observations

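Without mare 3, 23 genes with a symbol passed the threshold, and 15 of them had not passed with all 6 mares. Those named here were chosen after their values were seen. Mare 3 was left out because its changes went against those of the other mares in these same values. The adjusted p values without it therefore describe the other 5 mares and are not an independent test. LGB1, a lipocalin of the beta-lactoglobulin kind, fell, with a change of -1.22 ± 0.14 (SE, 5 mares, adjusted p = 0.00384), while its change in mare 3 was 1.88 and that over all 6 mares -0.71 ± 0.36. Of the genes of the cell surface, PRNP, the prion protein, rose by 0.85 ± 0.12 (mare 3 at -1.33) and MET by 0.87 ± 0.19 (mare 3 at -0.21). This MET probe is not the one given above, and over all 6 mares its change was 0.69 ± 0.20. MB21D2 rose by 1.20 ± 0.15 (mare 3 at -1.44) and TMEM255A by 0.73 ± 0.11 (mare 3 at -0.29).

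Among the same 15 genes, PYGL, which breaks down glycogen, rose by 0.53 ± 0.11, with mare 3 at 0.00, and the vasoactive peptide gene EDN2 by 0.61 ± 0.14, with mare 3 at 0.66. TIMP1 rose by 0.79 ± 0.12 and SPI2 by 2.10 ± 0.40. The TIMP1 probe is likewise not the one given above, and over all mares its change was 0.67 ± 0.13. LY49F, a receptor of natural killer cells, fell with a change of -0.59 ± 0.13 (mare 3 at 0.33), DCTN1, a dynactin subunit of microtubule transport, with -0.48 ± 0.09 (mare 3 at 0.44), LOC100053653 with -0.60 ± 0.11 (mare 3 at 0.56), PPAT with -0.54 ± 0.11 and SMIM7 with -0.33 ± 0.07. In 10 of the 23 genes the sign of the change in mare 3 was opposite to that of the other mares. The same share over all genes with a symbol was not computed.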
